A study of Mus musculus with 14 samples.

Results

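The carbonic anhydrase genes of mouse embryonic stem cells (ESCs) were followed across genotype and culture medium. The 9 genes described here, Car2, Car3, Car4, Car7, Car9, Car11, Car12, Car13 and Car14, were taken by symbol from a table of 41204 genes that holds 15 carbonic anhydrase genes. They were selected on levels measured in the same 8 samples, so their values are given as a description and carry no test. Each of the 9 had a mean above 0.2 FPKM (sequenced fragments scaled to transcript length and library depth) over the 8 samples, the minimum for the fit across all genes. Car7 with 0.201 FPKM and Car3 with 0.239 FPKM lay just above that level. Of the 6 carbonic anhydrase genes outside the 9, Car8 with a mean of 0.966 FPKM and Car5b with 0.544 FPKM also passed the minimum, Car6 with 0.166 FPKM and Car15 with 0.0630 FPKM lay under it, and Car1 and Car10 were listed at 0 in all 8 samples.

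Poly(A) RNA was sequenced from wild-type ESCs and from Trincr1-/- ESCs (Trincr1-ko in the labels), in which exons 2 to 4 of the lncRNA gene Gm2694, named Trincr1, were deleted with Cas9 and a pair of guide RNAs. Both genotypes had the strain background C57BL/6(F) x 129/sv(M). All 4 groups were grown with LIF (leukemia inhibitory factor, 1000 units per ml) and 1 µM PD0325901, a MEK inhibitor. Activity of ERK, the kinase below MEK, was not alike between genotypes. The authors reported more basal ERK phosphorylation in Trincr1-/- than in wild-type ESCs in both media. Its part in the levels given here was not tested. In 2i + LIF the medium also held 3 µM CHIR99021, a GSK3 inhibitor that activates Wnt signaling. For PD + LIF, the ESCs were plated for 24 h in 2i + LIF and then kept for 4 days without CHIR99021. The days since plating are not given for the samples in 2i + LIF. A difference in these days could not be told apart from the loss of CHIR99021. Each of the 4 groups had 2 samples, called biological replicates in the series' design, and from which Trincr1-/- clone the RNA came is not given in the sources used here. In a second experiment, RNA bound by TRIM71 was pulled down from ESCs that overexpressed FLAG-tagged TRIM71 in 2i + LIF and compared with an input, whose ESC line the labels do not give.

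Carbonic anhydrases are zinc enzymes that turn carbon dioxide and water into bicarbonate and a proton, and back. Isoforms in the cytosol, such as Car2, keep carbon dioxide and bicarbonate in equilibrium inside the cell, while isoforms with an active site on the outer face of the plasma membrane, such as Car4, Car9, Car12 and Car14, act on the carbon dioxide, bicarbonate and protons that cells release. Zinc is held by histidine side chains, and relatives that have lost these, among them Car8, Car10 and Car11, are catalytically inactive. CA9 is known as a target of the hypoxia-inducible factor HIF, and CA12 is also induced by hypoxia in many cells.

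The proteins were compared by translating the coding sequences of GENCODE release M1. The 9 proteins were 260 to 437 residues long, Car2 and Car3 being the shortest and Car9 the longest. Identity to Car2 was 56.9% for Car3, 56.5% for Car13 and 55.0% for Car7, all cytosolic, and 38.4% for Car9, 37.5% for Car12, 37.2% for Car14, 33.3% for Car11 and 32.1% for Car4. The closest pair among the 9 was Car3 and Car13 with 60.8% identity. The 3 zinc-binding histidines of Car2 were present at the aligned positions of each of the other catalytic members, and 0 of 3 were present in Car11. Outside the 9, Car8 kept 2 of 3 and Car10 kept 1 of 3. In the deposited GRCm38 coordinates, Car13, Car1, Car3 and Car2 lie in this order within 259044 bases of chromosome 3, from 14641726 to 14900769, and no other protein-coding gene lies between them.

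The 4 membrane-anchored members were close to 0 in 2i + LIF, and the upstream sequences of these genes are shown because their share of carbonic anhydrase mRNA differed widely between media. RefSeq windows on GRCm38.p6 matched 6 of the 9 members (not Car2, Car3 or Car13), and the 250 bases before the start site are printed 5′ to 3′ on the strand of the gene. They lie at chr11:84957504-84957753 (plus strand) for Car4, chr4:43506776-43507025 (plus strand) for Car9, chr9:66713436-66713685 (plus strand) for Car12 and chr3:95904686-95904935 (minus strand) for Car14. Capitals mark matches on either strand to ACGTG, the core of the hypoxia response element, or to CTTTGAT, a form of the TCF/LEF motif of Wnt signaling.
Car4: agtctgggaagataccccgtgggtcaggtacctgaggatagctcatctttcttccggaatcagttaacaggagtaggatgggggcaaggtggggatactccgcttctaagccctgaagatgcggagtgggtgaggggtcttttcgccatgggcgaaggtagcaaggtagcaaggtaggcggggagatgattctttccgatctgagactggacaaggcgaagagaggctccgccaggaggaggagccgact
Car9: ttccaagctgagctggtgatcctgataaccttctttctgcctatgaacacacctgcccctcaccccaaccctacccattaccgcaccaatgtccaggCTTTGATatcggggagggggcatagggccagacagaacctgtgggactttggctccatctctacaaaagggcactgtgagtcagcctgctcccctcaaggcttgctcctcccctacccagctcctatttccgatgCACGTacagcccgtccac
Car12: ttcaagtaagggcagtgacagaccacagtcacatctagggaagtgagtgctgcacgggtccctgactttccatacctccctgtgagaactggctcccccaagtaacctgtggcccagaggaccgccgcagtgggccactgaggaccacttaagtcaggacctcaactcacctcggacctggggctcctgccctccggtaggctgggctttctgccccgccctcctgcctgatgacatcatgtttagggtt
Car14: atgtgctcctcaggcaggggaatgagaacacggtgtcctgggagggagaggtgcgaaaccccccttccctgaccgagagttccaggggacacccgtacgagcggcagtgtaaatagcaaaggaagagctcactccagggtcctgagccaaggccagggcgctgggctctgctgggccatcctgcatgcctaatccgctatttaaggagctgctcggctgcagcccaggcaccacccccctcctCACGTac

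The hypoxia core was found once before Car9, 18 bases from the start, and once before Car14, 7 bases from the start, both on the strand opposite to the gene. The TCF/LEF letters were found once, before Car9, 153 bases from the start. Neither motif was found in the windows of Car4, Car12, Car7 (3 start sites) or Car11 (2 start sites). Among 32851 RefSeq windows of the same 250 bases, 16.6% held the hypoxia core and 3.21% held the TCF/LEF letters, so a match to the core is common by itself. The motifs were chosen with the levels of these genes known, and a match is a stretch of letters, not a measured binding site.

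The depth of the libraries, estimated from the smallest steps between FPKM values, was 8.88 to 11.9 M fragments per sample, and 1 fragment on a transcript of 1000 bases was worth 0.0838 to 0.113 FPKM. The target of the deletion, Gm2694, had 5.70 and 9.45 FPKM in wild-type ESCs and 0.0754 and 0 FPKM in Trincr1-/- ESCs in 2i + LIF (adjusted p = 0.00317 in limma), and 6.18 and 6.56 against 1.38 and 0.746 FPKM in PD + LIF (adjusted p = 0.00535 in limma). All 7 ESC markers examined, Pou5f1 and Nanog among them, were above 0.1 FPKM in every group, and their summed level was 1771 to 1808 FPKM in the 4 samples in 2i + LIF, 1116 to 1150 FPKM in wild type in PD + LIF and 914 to 947 FPKM in Trincr1-/- in PD + LIF.

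Both the amount and the makeup of carbonic anhydrase mRNA differed between the media. The 9 genes summed to 16.5 to 17.9 FPKM in the 4 samples in 2i + LIF, to 70.9 and 68.1 FPKM in wild type in PD + LIF, and to 87.7 and 101.6 FPKM in Trincr1-/- in PD + LIF. In 2i + LIF, the 4 cytosolic members held 86.9% to 89.0% of the sum and the 4 membrane-anchored members 1.03% to 2.10%. In PD + LIF, the cytosolic members held 48.5% to 57.2% and the membrane-anchored members 40.1% to 47.1%. Car13 went from 39.8% to 48.6% of the sum in 2i + LIF to 6.04% to 14.4% in PD + LIF, while its own values overlapped between the media. The ranges of the 2 media do not overlap for any of these shares. The shares are parts of 1 sum over genes chosen on these levels, and a higher level of Car4 lowers the shares of the others by itself. They are thus not separate results.

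**Figure D1:**
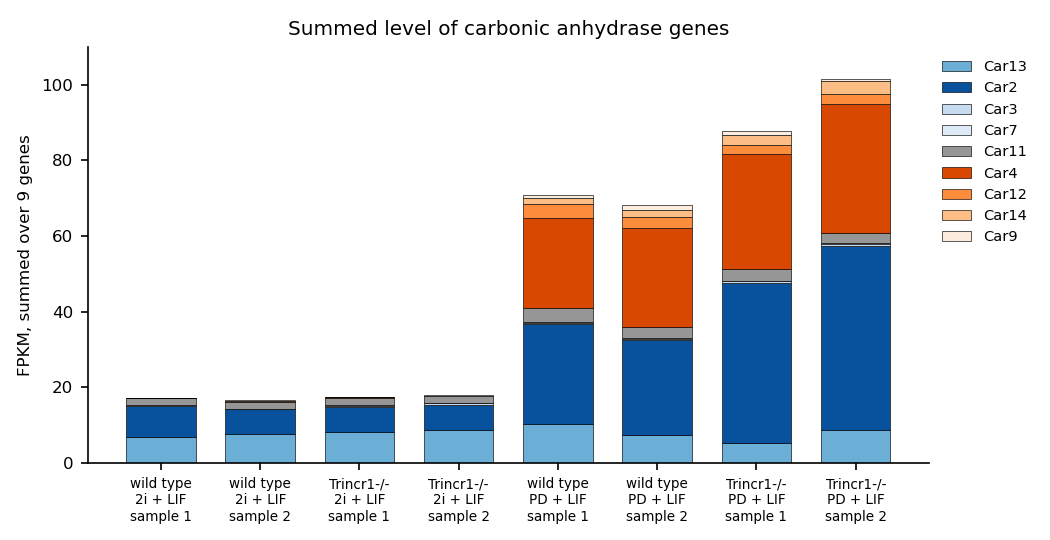
Level of the 9 carbonic anhydrase genes in each of the 8 samples, stacked and summed, in FPKM; blue shades are cytosolic members, orange shades membrane-anchored members and grey Car11. The 4 bars in 2i + LIF reach 16.5 to 17.9 FPKM and are mostly Car2 and Car13, with Car11 at 1.79 to 1.91 FPKM. The 4 bars in PD + LIF reach 68.1 to 101.6 FPKM, mostly Car2 and Car4.

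In the fit across 15430 genes, a gene was called at a limma adjusted p under 0.05. In wild type, 6 of the 9 members were called higher in PD + LIF than in 2i + LIF and 0 lower, while 30.9% of all genes tested were called higher and 21.3% lower. In Trincr1-/- ESCs, 6 of 9 were again called higher and 0 lower, beside 29.6% and 20.3% of all genes. The 6 genes were Car2, Car4, Car9, Car11, Car12 and Car14 in both genotypes. The median difference of log2(FPKM + 1) between media over the 9 members was 0.90 in wild type and 0.65 in Trincr1-/-, and over all genes 0.08 and 0.07. The genes were chosen with these values known, so nothing is read from the counts. A lack of overlap between 2 groups of 2 samples, where it is given below, is a description too. It often arises without any difference, and its share over all genes is not given here. In bulk RNA, a lower level in every cell cannot be told apart from fewer cells that express the gene.

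**Figure D2:**
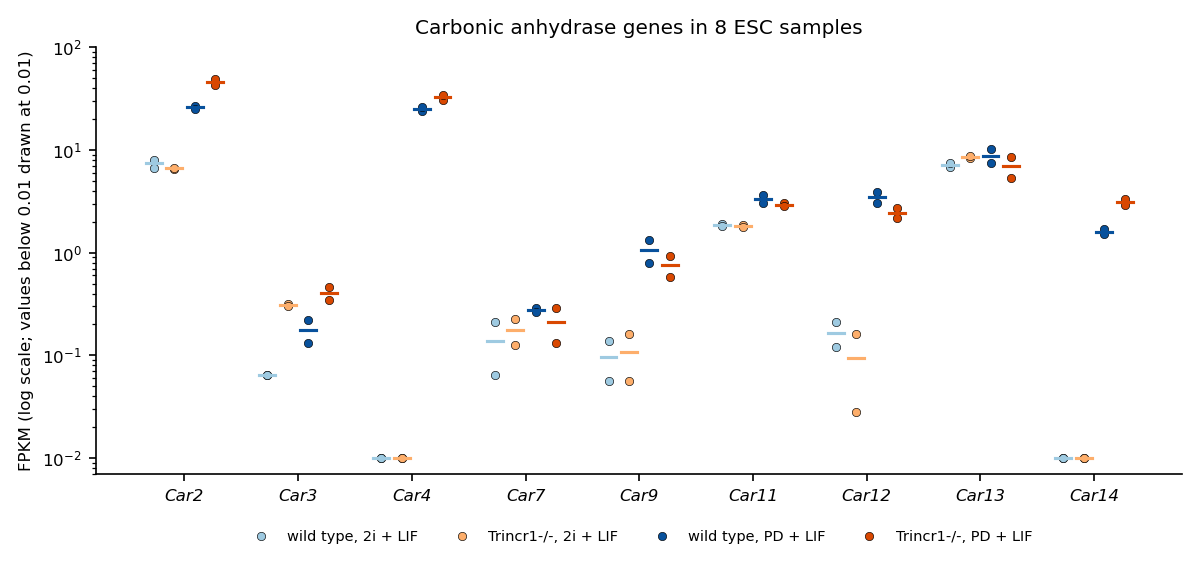
FPKM (log axis) of each member in each sample, with the 2 samples of a group as points and their mean as a bar; values below 0.01 FPKM are drawn at 0.01. Car4 and Car14 sit at the lower edge in the 4 samples in 2i + LIF and between 23.8 and 34.1 FPKM and between 1.51 and 3.35 FPKM in PD + LIF, while Car13 stays between 5.30 and 10.2 FPKM throughout.

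Among the membrane-anchored members, Car4, an enzyme tied to the outer membrane face by a lipid anchor, was listed at 0 in all 4 samples in 2i + LIF. In PD + LIF, Car4 had 23.8 and 26.0 FPKM in wild type (24.9 ± 1.56, SD, n = 2) and 30.5 and 34.1 FPKM in Trincr1-/- (32.3 ± 2.49, SD, n = 2), about 331 to 485 fragments per sample. It thus went from the lowest place among the 9 genes to the second, with no overlap between media. No fold can be given against values listed at 0, and the fitted difference of log2(FPKM + 1), 4.70 ± 0.10 (SE) in wild type and 5.05 ± 0.10 in Trincr1-/-, depends on the 1 FPKM added. As a description, 134 of the 15430 genes were below 0.001 FPKM in all 4 samples in 2i + LIF. Of these, 2 were above 5 FPKM in all 4 samples in PD + LIF, and Car4 was the 1 protein-coding gene among them. Car4 was chosen with its values known and these limits fit them, so nothing is read from the counts. Car14, also effectively at 0 in 2i + LIF, lay under the level of 5 FPKM.

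Car14, a transmembrane enzyme with an outer active site, was also listed at effectively 0 in 2i + LIF, at most 3.48e-12 FPKM. In PD + LIF it had 1.51 and 1.69 FPKM in wild type (1.60 ± 0.126, SD, n = 2) and 2.88 and 3.35 FPKM in Trincr1-/- (3.11 ± 0.330, SD, n = 2). The difference of log2(FPKM + 1) between media was 1.38 ± 0.12 (SE) in wild type and 2.04 ± 0.12 in Trincr1-/-. Car14 overlaps Aph1a by 522 bases, and how the counting assigned reads in the overlap is not given in the sources used here. Aph1a, a subunit of gamma-secretase, had 15.6 to 20.8 FPKM in the 8 samples and was not called between media in either genotype.

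Car12, a transmembrane enzyme, had 0.121 and 0.210 FPKM in wild type and 0.162 and 0.0284 FPKM in Trincr1-/- in 2i + LIF, which is about 0.939 to 8.13 fragments per sample. In PD + LIF it had 3.87 and 3.01 FPKM in wild type (3.44 ± 0.611, SD, n = 2) and 2.17 and 2.73 FPKM in Trincr1-/- (2.45 ± 0.402, SD, n = 2). The ratio of the group means was 20.8 in wild type and 25.7 in Trincr1-/-, with no overlap between media. On the log2(FPKM + 1) scale, which compresses low values, the differences were 1.92 ± 0.15 (SE) and 1.65 ± 0.15.

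Car9, the transmembrane enzyme with the hypoxia core 18 bases before its start, was low in every sample. It had 0.0569 and 0.137 FPKM in wild type and 0.0565 and 0.162 FPKM in Trincr1-/- in 2i + LIF, which is 1.19 to 2.91 fragments. In PD + LIF it had 0.795 and 1.32 FPKM in wild type and 0.925 and 0.578 FPKM in Trincr1-/-, or 13.3 to 27.0 fragments. The ratio of the group means was 10.9 in wild type and 6.88 in Trincr1-/-, and all 4 samples in PD + LIF lay above all 4 in 2i + LIF. In Trincr1-/-, the call of Car9 was lost without the first sample of either medium. Car9 overlaps the antisense gene Gm12454 by 1783 bases, and without a stated strand their reads cannot be told apart. Gm12454 had 0 to 0.415 FPKM in 2i + LIF and 0.448 to 0.938 FPKM in PD + LIF, and was called higher in PD + LIF in Trincr1-/- (log2 difference 0.63, adjusted p = 0.0354 in limma) but not in wild type (0.49, adjusted p = 0.0793 in limma); its part in the values of Car9 was not tested.

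Among the cytosolic members, Car2, the fast and widespread isoform, had 8.03 and 6.72 FPKM in wild type (7.38 ± 0.931, SD, n = 2) and 6.56 and 6.69 FPKM in Trincr1-/- (6.63 ± 0.0951, SD, n = 2) in 2i + LIF. In PD + LIF it had 26.5 and 25.2 FPKM in wild type (25.8 ± 0.902, SD, n = 2) and 42.3 and 48.8 FPKM in Trincr1-/- (45.6 ± 4.61, SD, n = 2). The ratio between media was 3.50 in wild type and 6.88 in Trincr1-/-, and neither genotype's samples overlapped between media. On the log2(FPKM + 1) scale the differences were 1.68 ± 0.10 (SE) and 2.61 ± 0.10. Car2 had the highest mean of the 9 in each group except Trincr1-/- in 2i + LIF, where Car13 was higher. In wild type in 2i + LIF Car2 and Car13 overlapped, and in wild type in PD + LIF Car2 and Car4 did.

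Car13, a cytosolic isoform whose gene opens the cluster on chromosome 3, had 6.86 and 7.48 FPKM in wild type and 8.25 and 8.70 FPKM in Trincr1-/- in 2i + LIF. In PD + LIF the values were 10.2 and 7.39 FPKM in wild type and 5.30 and 8.59 FPKM in Trincr1-/-. The media overlapped in both genotypes, and the differences of log2(FPKM + 1), 0.25 ± 0.21 (SE) in wild type and -0.29 ± 0.21 in Trincr1-/-, were not called. In the same samples its cluster neighbour Car2 was 3.50 times as high in PD + LIF in wild type.

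Car3, a slow isoform abundant in muscle and fat, lies between Car13 and Car2 and was close to the detection limit. It had 0.0640 FPKM in both wild-type samples and 0.317 and 0.302 FPKM in Trincr1-/- in 2i + LIF, which is about 0.994 and 1.01 fragments against 4.97 and 4.04. In PD + LIF it had 0.221 and 0.132 FPKM in wild type and 0.461 and 0.347 FPKM in Trincr1-/-, about 3.97 and 2.01 fragments against 7.05 and 5.93. The Trincr1-/- samples were the higher ones in both media, but at these few fragments the difference was not called in any comparison. Car7, a cytosolic isoform known from brain, had 0.0641 to 0.290 FPKM over the 8 samples, about 1.30 to 6.69 fragments, and was not called either. The fourth gene of the cluster, Car1, was listed at 0 in all 8 samples.

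Car11, the inactive member, had 1.91 and 1.82 FPKM in wild type and 1.86 and 1.79 FPKM in Trincr1-/- in 2i + LIF, and 3.66 and 3.05 FPKM in wild type and 3.04 and 2.82 FPKM in Trincr1-/- in PD + LIF. The ratio between media was 1.80 in wild type and 1.61 in Trincr1-/-, below the ratios of Car2, Car9 and Car12, and the samples of the 2 media did not overlap. Its difference of log2(FPKM + 1) was 0.60 ± 0.12 (SE) in wild type and 0.48 ± 0.12 in Trincr1-/-, and neither was called after quantile normalization, which gave 0.31 and 0.18. In Trincr1-/- the call of Car11 was also lost without the second sample in 2i + LIF or the first in PD + LIF. Car8, an inactive relative outside the 9 that was also known from these values, went the other way. It had 1.43 and 1.31 FPKM in wild type and 1.87 and 1.96 FPKM in Trincr1-/- in 2i + LIF, and 0.606 and 0.280 FPKM in wild type and 0.117 and 0.164 FPKM in Trincr1-/- in PD + LIF. Its differences of log2(FPKM + 1), -0.72 ± 0.14 (SE) and -1.35 ± 0.14, were both called lower.

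**Figure D3:**
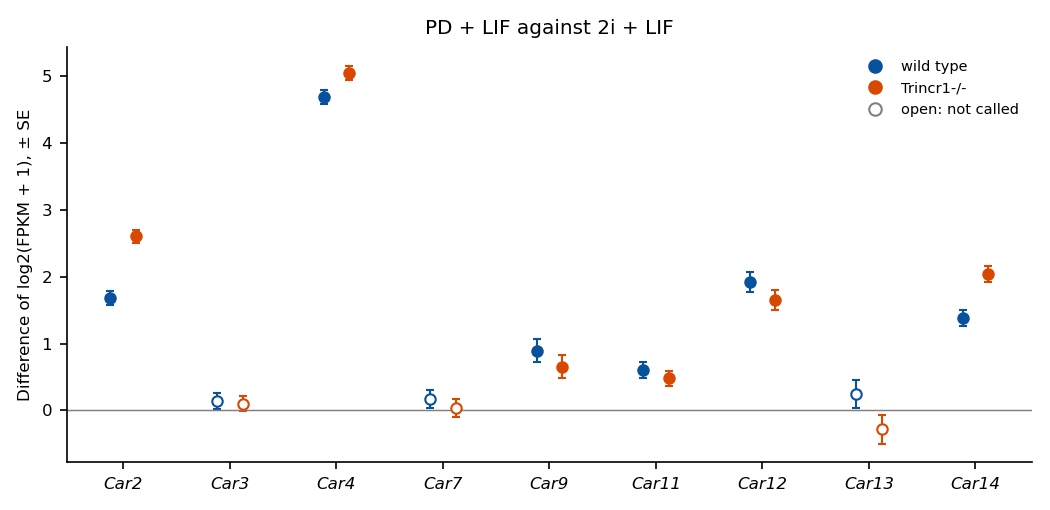
Difference of log2(FPKM + 1) between PD + LIF and 2i + LIF for each member in wild type and in Trincr1-/-, with the standard error of the limma fit; filled points were called at an adjusted p under 0.05. Car2, Car4, Car9, Car11, Car12 and Car14 are filled and above 0 in both genotypes, and Car3, Car7 and Car13 are open; the points of Car4 and Car14 depend on the 1 FPKM added.

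Markers of other cell types moved with the medium and, in part, with the genotype. The 4 of 5 neural markers listed in the table, all above 0.1 FPKM in each group, summed to 6.82 to 8.23 FPKM in 2i + LIF and 29.8 to 38.9 FPKM in PD + LIF. The trophoblast list, with Krt7 or Elf5 below 0.1 FPKM in 3 groups, summed to 4.09 to 5.78 FPKM and 8.95 to 12.4 FPKM. Within it Krt7 and Gata3 were called higher and Cdx2 and Eomes lower in PD + LIF in both genotypes (limma, adjusted p of 0.00413 or less). The endoderm list, with Afp below 0.1 FPKM in each group, summed to 0.611 to 1.35 and 2.49 to 4.44 FPKM, and the fibroblast list, with Col3a1 below 0.1 FPKM in 3 groups, to 0.625 to 1.26 and 4.01 to 6.65 FPKM. The mesoderm list, with Mesp1 below 0.1 FPKM in each group, had 2.61 to 3.57 FPKM and 0.778 to 1.04 FPKM. Within PD + LIF, both Trincr1-/- samples lay above both wild-type samples for the neural list (38.9 in both against 29.8 and 33.7 FPKM), the endoderm list (3.54 and 4.44 against 2.49 and 3.07 FPKM), the fibroblast list (5.58 and 6.65 against 4.01 and 4.79 FPKM) and the mesoderm list (0.888 and 1.04 against 0.778 and 0.788 FPKM), while the trophoblast list overlapped. With 2 samples against 2, such an order often arises without any difference, and the share of all genes that show it is not given here. The genes of a list did not move together between genotypes. Limma called Sox1, Foxa2 and Col1a1 higher in Trincr1-/- in PD + LIF (log2 differences of 0.81, 0.90 and 1.03, adjusted p of 0.0182 or less), and no gene of the mesoderm list. Gata4 was alike, and Neurod1 (1.20 against 2.75 FPKM), Thy1 and Tbx6 had lower means in Trincr1-/-, as did Sox17, Mixl1 and Mesp1 near 0. The part of any of these in the levels of the carbonic anhydrases, between media or between genotypes, was not tested.

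Deletion of Trincr1 left the members without a called change in 2i + LIF. There, 0 of 9 were called in limma, beside 1.21% of all genes in either direction, and 1 of the 9 had an unadjusted p under 0.05. The ratio of Trincr1-/- to wild type was 0.899 for Car2, 1.18 for Car13 and 0.978 for Car11. In PD + LIF, 2 of 9 members, Car2 and Car14, were called higher in Trincr1-/- and 0 lower, beside 6.29% and 5.77% of all genes. The comparisons of genotype in PD + LIF and of medium share the samples in PD + LIF, so they are not independent of each other.

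In PD + LIF, both Trincr1-/- samples lay above both wild-type samples for Car2 (42.3 and 48.8 against 26.5 and 25.2 FPKM), with a ratio of 1.76 and a difference of log2(FPKM + 1) of 0.79 ± 0.10 (SE). The summed neural, endoderm, fibroblast and mesoderm markers were also higher in Trincr1-/- in these samples, though not every gene of these lists, and their part in it was not tested. Car14 did not overlap either, with a ratio of 1.94 and a difference of 0.66 ± 0.12, although Car14 lost its call when any of the 4 samples in PD + LIF was left out. Car4 did not overlap between genotypes either, with a ratio of 1.29 and a difference of 0.36 ± 0.10 that was not called. Car12 lay lower in both Trincr1-/- samples, with a ratio of 0.713 and a difference of -0.36 ± 0.15 that was not called. Car9, Car11 and Car13 had ratios of 0.712, 0.875 and 0.789 and were not called. Nothing is read from the lack of overlap between genotypes, since its share over all genes is not given here.

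**Figure D4:**
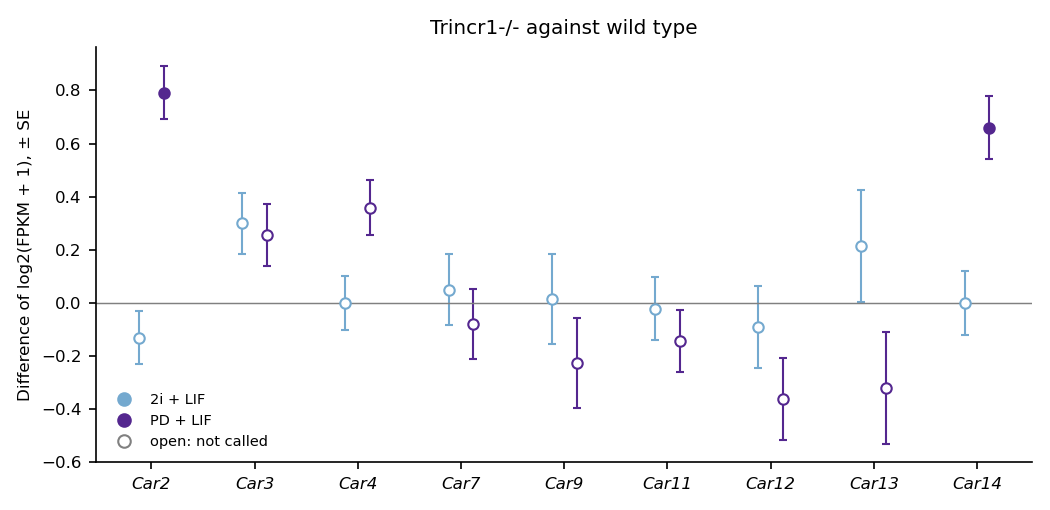
Difference of log2(FPKM + 1) between Trincr1-/- and wild type for each member in 2i + LIF and in PD + LIF, with the standard error of the limma fit; filled points were called at an adjusted p under 0.05. Only Car2 at 0.79 and Car14 at 0.66, both in PD + LIF, are filled.

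As a description, the difference of log2(FPKM + 1) between genotypes for Car2 was -0.13 ± 0.10 (SE) in 2i + LIF and 0.79 ± 0.10 in PD + LIF, 0.92 ± 0.14 apart. Car2 was the 1 of 9 members called higher in this comparison, beside 0.992% of all genes, and nothing is read from it. The call was lost when any single sample was left out, with differences of 0.81 to 1.04.

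The genes whose levels followed those of the members most closely were found by Pearson's r of log2(FPKM + 1) over the 8 samples, among 12057 genes outside the family with a mean of at least 1 FPKM. For Car2 they were Sall1 (r = 0.9988), Ppfibp1 and Shisa2, for Car4 Frem2, Arid3b and D8Ertd82e, for Car14 Ppfibp1, Efnb2 and Irx3, for Car12 Rlim, Ube2b and Tmcc2, and for Car11 Mapkbp1, Usp35 and Myo6. Each of these 5 members had from 624 to 1469 genes with r above 0.95, since the 8 samples fall into 2 media and any gene with the same step between media is alike. Car13 had 1 such gene, Tmem40 (r = 0.9541), followed by Fundc1 and Pcx. Shisa2 had 0.499 to 0.930 FPKM in 2i + LIF, 6.70 FPKM in both wild-type samples in PD + LIF, and 14.5 and 13.5 FPKM in Trincr1-/- in PD + LIF, an order of groups like that of Car2.

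Genes of neighbouring processes were examined next. They were listed by process, but with earlier results of these data known, so their calls and p-values are not independent of the choice of lists. Of 18 bicarbonate and anion transporter genes, 10 were tested. Between media, 3 were called higher and 1 lower in wild type, and 3 higher and 1 lower in Trincr1-/- (limma, adjusted p under 0.05), near the shares of all genes called (30.9% and 21.3% in wild type, 29.6% and 20.3% in Trincr1-/-). Slc4a3, a chloride/bicarbonate exchanger, rose from 0.432 and 0.518 FPKM to 5.55 and 6.16 FPKM in wild type (log2 difference 2.22 ± 0.13, SE, adjusted p = 1.84e-05 in limma) and from 0.718 and 0.971 FPKM to 3.71 and 4.09 FPKM in Trincr1-/- (1.41 ± 0.13, adjusted p = 0.000111 in limma). Slc4a5, a sodium bicarbonate cotransporter, fell from 60.8 and 52.0 FPKM to 29.9 and 26.2 FPKM in wild type (-0.98, adjusted p = 0.000174 in limma) and from 55.4 and 51.2 FPKM to 22.8 and 21.3 FPKM in Trincr1-/- (-1.23, adjusted p = 5.72e-05 in limma). Slc4a7, another sodium bicarbonate cotransporter, rose by 0.53 in wild type (adjusted p = 0.00252 in limma), and Slc26a2, a sulfate transporter, by 0.38 in Trincr1-/- (adjusted p = 0.0228 in limma). In Trincr1-/-, 2 of the 4 calls were lost without the first sample in 2i + LIF and without the second in PD + LIF. The median log2 difference of the 10 genes was 0.10 in wild type and 0.22 in Trincr1-/-.

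Between genotypes in PD + LIF, 0 of the 10 were called higher and 2 lower in Trincr1-/-, beside 6.29% and 5.77% of all genes. Slc4a8, a sodium-driven chloride/bicarbonate exchanger, had 7.04 and 8.66 FPKM in wild type and 4.23 and 4.62 FPKM in Trincr1-/- (log2 difference -0.70 ± 0.13, SE, adjusted p = 0.0189 in limma), and Slc4a3 differed by -0.48 ± 0.13 (adjusted p = 0.0495 in limma). Both calls were lost without either Trincr1-/- sample and without the second wild-type sample in PD + LIF. In 2i + LIF 0 of 10 were called in limma, and 3 had an unadjusted p under 0.05.

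Of 17 genes of proton and lactate transport, 10 were tested, and 4 were called higher and 2 lower in PD + LIF in wild type, and 3 higher and 0 lower in Trincr1-/-. The shares of all genes were 30.9% and 21.3% in wild type and 29.6% and 20.3% in Trincr1-/-, so the counts of higher calls are near the background. Slc16a3, which exports lactate together with a proton, rose from 13.0 and 13.9 FPKM to 68.0 and 78.2 FPKM in wild type (log2 difference 2.36 ± 0.10, SE, adjusted p = 7.32e-06 in limma) and from 14.6 and 13.6 FPKM to 123.5 and 103.9 FPKM in Trincr1-/- (2.92 ± 0.10, adjusted p = 2.58e-06 in limma). Emb, which brings lactate transporters to the membrane, rose by 2.37 and 2.67, and Slc9a5, a sodium/proton exchanger, by 2.58 and 2.68 (adjusted p of 8.85e-06 or less in limma for each). Between genotypes in PD + LIF, 3 were called higher and 1 lower in Trincr1-/-, beside 6.29% and 5.77% of all genes. Slc16a3 was higher by 0.63 ± 0.10 (adjusted p = 0.0113 in limma) and Emb by 0.54 ± 0.10 (adjusted p = 0.0170 in limma), and Slc9a8, a sodium/proton exchanger of inner membranes, differed by -0.58 ± 0.07 (adjusted p = 0.00518 in limma). All 3 higher calls were lost without the first wild-type or the first Trincr1-/- sample in PD + LIF. Slc9a3r1, a scaffold protein that binds sodium/proton exchangers, was the 1 gene of the list called in 2i + LIF, with 44.0 and 44.6 FPKM in wild type and 31.5 and 31.5 FPKM in Trincr1-/- (-0.48 ± 0.07, adjusted p = 0.0339 in limma), and its call was lost without 6 of the 8 samples in turn.

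Since CA9 and CA12 are known from hypoxia, 20 genes of the hypoxia response were examined, of which 19 were tested. In PD + LIF, 15 were called higher and 2 lower in wild type, and 15 higher and 1 lower in Trincr1-/-, beside 30.9% and 21.3% of all genes in wild type and 29.6% and 20.3% in Trincr1-/-. The median log2 difference of the list was 1.26 and 1.19, and that of all genes 0.08 and 0.07. Bnip3, a receptor for the removal of mitochondria, rose from 6.82 and 7.80 FPKM to 71.8 and 78.6 FPKM in wild type (log2 difference 3.20 ± 0.12, SE, adjusted p = 5.41e-06 in limma) and from 8.63 and 10.7 FPKM to 80.6 and 69.4 FPKM in Trincr1-/- (2.84 ± 0.12, adjusted p = 4.82e-06 in limma). Ddit4, an inhibitor of mTORC1 signaling, rose by 2.70 and 3.05 (adjusted p = 5.41e-06 and 2.53e-06 in limma), Bhlhe40, a transcriptional repressor, by 1.77 in wild type (adjusted p = 1.16e-05 in limma), and P4ha2, a collagen prolyl hydroxylase, by 2.26 in Trincr1-/- (adjusted p = 0.00608 in limma). The wild-type samples of P4ha2 in 2i + LIF differed widely, at 0.701 and 4.65 FPKM. Kdm3a, a histone demethylase, fell by 0.82 in wild type and by 0.93 in Trincr1-/- (adjusted p = 2.97e-05 and 1.55e-05 in limma). A part of hypoxia in the levels of Car9 and Car12 was not tested. It could not be told apart here from the medium or from the days since plating.

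Between genotypes, 0 of the 19 hypoxia genes were called in 2i + LIF in limma, where 6 had an unadjusted p under 0.05, and 1 was called higher and 2 lower in Trincr1-/- in PD + LIF, beside 6.29% and 5.77% of all genes. These were Ndrg1, a stress-induced gene (log2 difference 0.52, adjusted p = 0.0159 in limma), Stc2, a secreted glycoprotein (-0.71, adjusted p = 0.0490 in limma), and Mxi1, an antagonist of Myc (-0.53, adjusted p = 0.0220 in limma). All 3 calls were lost without the first wild-type sample or without either Trincr1-/- sample in PD + LIF.

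**Figure D5:**
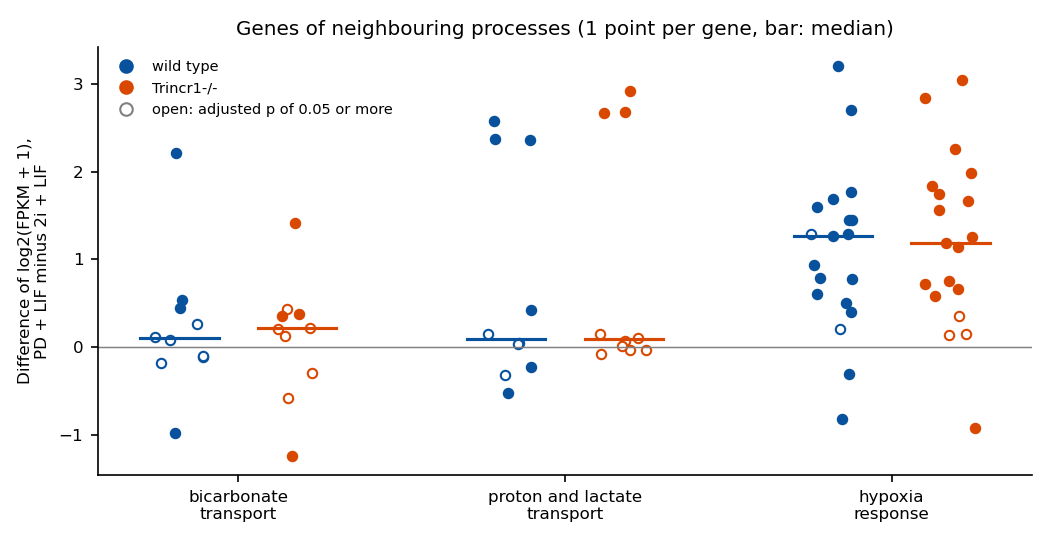
Difference of log2(FPKM + 1) between PD + LIF and 2i + LIF for each tested gene of the 3 lists in wild type (blue) and Trincr1-/- (orange); bars are medians, and open points had an adjusted p of 0.05 or more. Most points of the hypoxia list are filled and above 0, with medians of 1.26 and 1.19, while the medians of the other lists lie between 0.09 and 0.22.

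RNA pulled down with FLAG-TRIM71 gave a measure of the members that their choice did not use, in ESCs that overexpressed FLAG-TRIM71 in 2i + LIF. The deposited table holds 1 FPKM value for the input and 1 for the immunoprecipitation (IP) of each transcript, so there is no replicate error and no test, and the empty-vector IP is not used here. It lists 5 of the 9 members, with an input of 22.6 FPKM for Car13, 2.9 for Car11, 2.4 for Car2, 0.6 for Car9 and 0.4 for Car7, and each was listed at 0 in the IP. The input does not repeat the levels of the RNA-seq samples in 2i + LIF, where Car13 had 6.86 to 8.70 FPKM and Car2 6.56 to 8.03 FPKM. Over the table, 60.2% of 14054 transcripts were at 0 in the IP. Among 1940 transcripts with an input within 1.5-fold of that of Car13, 37.7% were at 0, and among those as abundant as Car11, Car2, Car9 and Car7 the share was 73.8%, 77.8%, 91.9% and 93.1%. A value of 0 was thus common at the input levels of these genes. Car3, Car4, Car12 and Car14 had no entry in this table, which starts at an input of 0.1 FPKM. Of the 5 carbonic anhydrase genes outside the 9 in this table, Car8 (input 2.7 FPKM), Car5a (2.2), Car6 (0.7) and Car15 (0.2) were at 0 in the IP. Car5b had an input of 0.8 FPKM and an IP of 0.6 FPKM before scaling. After the scaling by the authors its IP value was 1.4, a ratio of 1.75 to the input, without replicates.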

How the data were processed

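Poly(A) RNA of 8 ESC samples in 4 groups was sequenced, and RNA of a FLAG-TRIM71 pulldown and its input. The authors aligned reads with STAR 2.5.0, guided by GENCODE transcripts, quantified them with Cufflinks 2.2.1 and deposited FPKM values, normalized in Cufflinks, per gene and sample; mm9 is named, but the coordinates of 12 of 15 carbonic anhydrase genes lie within 1000 bases of GRCm38.p6. For the pulldown, reads on non-polyA transcripts were left out, and the authors deposited 1 FPKM value and 1 scaled score (FPKM scaled to the mean of each dataset) per transcript for IP and input; their column of fold enrichment was not used.

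Of the 41260 entries, 39 gene identifiers had more than 1, and that of the highest mean was used. Genes with a mean above 0.2 FPKM, 15430 in all, were compared on log2(FPKM + 1) with limma 3.58.1 (R 4.3.3), all 4 groups in 1 model with a variance trend, and Benjamini-Hochberg adjustment over all genes. The FPKM sums were 497115 to 519651, and no further scaling was applied in the main fit. Median-ratio factors were 0.976 to 0.981 in 2i + LIF and 1.03 to 1.05 in PD + LIF. The shares of all genes called higher and lower between media thus depend on this choice. In wild type, 4765 were called higher and 3283 lower, and 4114 and 3978 with median-ratio scaling. Fragment numbers were estimated from the smallest FPKM step of genes with 1 transcript of 800 to 3000 bases, and cover counting error only. Proteins were translated from GENCODE M1 coding sequences and aligned with Biopython 1.88. The fit was tested on simulated data.

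The members and lists were chosen with earlier results of these data known. Named in the text were the 9 members, the other carbonic anhydrase genes, Gm2694, up to 3 called genes per list and comparison with the largest difference, the 3 genes most alike in level to each member with a mean of at least 1 FPKM, and marker genes; Kdm3a, Aph1a and Gm12454 were named after their values were seen. Of the marker lists, 1 is not reported here. P-values measure the spread between samples of a group, which may be technical. Alternatives were the pseudocount, the filter, normalization, the variance model, the samples fitted, a replicate block and leaving out each sample.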

Additional observations from a re-analysis of the deposited data

Results flagged for a closer look

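Genes past the threshold of genotype by medium in limma, the difference of the genotype effect between media, were 1 member, 1 gene of the transport lists and several marker genes. Among the markers, Esrrb (-0.67) and Tfcp2l1 (-0.75) of the ESC list, Sox1 (1.06) of the neural list and Col1a1 (1.11) of the fibroblast list were called besides Cdx2. Their adjusted p was 0.0384 or less in limma, and their calls under the alternatives are not given here. Car2 was chosen with these values known, so its value is a description: the log2(FPKM + 1) difference between Trincr1-/- and wild type was larger in PD + LIF than in 2i + LIF by 0.92. For Slc9a3r1, the scaffold of sodium/proton exchangers, it was larger by 0.66 (adjusted p = 0.0352 in limma): this gene was lower in Trincr1-/- in 2i + LIF, at 31.5 ± 0.0489 against 44.3 ± 0.448 FPKM (SD, n = 2), and was not called in PD + LIF, at 35.0 ± 1.11 against 30.7 ± 3.32 FPKM. For Cdx2, a trophoblast marker, the difference was smaller in PD + LIF, by -1.11 (adjusted p = 0.0430 in limma), with 0.727 and 0.766 FPKM in wild type and 2.60 and 3.43 FPKM in Trincr1-/- in 2i + LIF and 0.0416 to 0.166 FPKM in PD + LIF. The calls of Car2 and Cdx2 were lost without any single sample, and that of Slc9a3r1 without each of 7 samples in turn, all except the second wild-type sample in PD + LIF; all 3 were lost with a replicate block, without a filter and without the variance trend. With 2 samples per group, no group was large enough to look for a single sample far from the others.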

How the results depend on the processing

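Counts of calls were recomputed under each alternative: 296 of 372 stayed within 1.5 times the reported count. Of 741 log2 differences of members, 666 moved by less than 1 SD and 0 of the called ones changed sign. Many of these could not move. The filter, the variance model, a replicate block and samples outside a comparison do not change the difference of group means. The 666 is thus not a measure of stability. Quantile normalization ended the calls of Car11 in both genotypes (0.31 and 0.18) and of Car9 in Trincr1-/- (0.46). It also moved the share of higher calls between media from 59.2% to 49.1% in wild type and from 59.3% to 48.2% in Trincr1-/-. The median difference of all genes was then -0.02 and -0.03 in place of 0.08 and 0.07. Car3, Car7 and Car13 were not called there either. Median-ratio scaling moved the share in the same way, to 50.8% and 51.2%, with medians of 0.00969 and 0.00703. With it, 6 members were still called higher in each genotype. The cause was not tested.

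Without a filter, 122 genes were called for genotype in 2i + LIF, 138 for genotype by medium, with 0 members, and 0 genes of proton and lactate transport in 2i + LIF, with more genes tested. With only the 4 samples compared, fewer samples gave 0 genes in 2i + LIF, 316 in PD + LIF with 1 member, 0 bicarbonate genes, 1 proton and lactate gene and 0 hypoxia genes, and 0 proton and lactate genes in 2i + LIF. Without the variance trend, genotype by medium gave 88 genes and 0 members, 0 proton and lactate genes were called in 2i + LIF, and Car4 became called between genotypes in PD + LIF (0.36). A pseudocount of 0.1 FPKM left 1 member for genotype in PD + LIF. The bicarbonate list gave 1 call there with a pseudocount of 0.1 or 0.5 FPKM and with median-ratio scaling, and 1 in 2i + LIF above a mean of 1 FPKM. The cause was not tested.

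Same-numbered samples did not deviate together over all genes (r of -0.05 to 0.01 over 6 pairs of groups), and the main fit assumed no pairing. A preparation shared in a part of the genes could be missed by this check. With a replicate block, 111 genes were called for genotype in 2i + LIF and 39 for genotype by medium, with 0 members and 0 proton and lactate genes in 2i + LIF. The block cannot change the difference of Car2, 0.92, since each group holds both replicate numbers.

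Leaving out 1 sample at a time, where a group of 1 sample is assumed to vary like the others, gave 40 to 113 genes for genotype in 2i + LIF, 335 to 1519 in PD + LIF and 3 to 34 for genotype by medium. Members called were 1 to 2 for genotype in PD + LIF and 0 for genotype by medium. Bicarbonate genes were 2 to 5 for medium in Trincr1-/- and 0 to 2 for genotype in PD + LIF, proton and lactate genes 0 to 1 for genotype in 2i + LIF and 1 to 3 in PD + LIF, and hypoxia genes 0 to 2 in PD + LIF. In the pulldown, the ratio of the 5 listed members was 0 with and without scaling, and 0.0424 to 0.714 with 1 FPKM added to both values. The levels of Car9 and Car12 in 2i + LIF rest on 0.939 to 8.13 fragments per sample, so their ratios between media are imprecise.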
